A study of Homo sapiens with 8 samples.

Results

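The mitosis and kinetochore genes described here are 54 protein-coding genes, chosen by symbol for their roles as mitotic kinases and cyclins, kinetochore and checkpoint proteins, spindle motors and cytokinesis factors, out of 56638 symbols listed in both count tables. All 54 passed the filter on low counts in every comparison. RNA sequencing gave their mRNA levels in SCC25 cells, a squamous carcinoma line of the tongue that the study uses as a model of mesenchymal head and neck cancer, after knockdown of the transcription factor ETS1. The 8 libraries formed 4 groups of 2 replicates. The siRNA control cells were transfected with non-targeting small interfering RNAs (siRNA), and the ETS1 siRNA cells with a pool of 4 siRNAs against ETS1, a short-term loss whose duration is not given in the sources used here. The shCON cells stably expressed a non-targeting short hairpin RNA (shRNA) from a lentivirus, and the shETS1 cells a single hairpin against ETS1 that the labels call shETS1_3, so that the long-term loss rests on 1 construct. Both shRNA lines had been selected in puromycin, all cells grew in medium with hydrocortisone, and no group carried any other treatment in the labels. The siRNA replicates are described as biological, whereas the sources do not say whether the shRNA libraries came from separate transductions or cultures, so that the p-values there measure only the spread between these libraries.

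As background, cells enter mitosis when cyclin-dependent kinase 1 bound to A- and B-type cyclins becomes active, with Polo-like and Aurora kinases acting beside it. Kinetochores, built on centromeric chromatin marked by CENPA, then attach chromosomes to spindle microtubules, and the spindle checkpoint holds back the anaphase-promoting complex until every kinetochore is attached. Most of these genes are transcribed periodically and peak late in the cell cycle, when MuvB complexes with B-MYB and FOXM1 act at a promoter element named the cell cycle genes homology region (CHR), and they serve as markers of dividing cells in carcinomas.

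The targeted gene ETS1 had 224 and 279 reads in the shETS1 libraries against 2069 and 1871 with the control hairpin. With siRNA it had 299 and 268 reads against 5726 and 3977 in the control, so that the knockdown was visible in every library. Its log2 fold change was -2.89 ± 0.10 (SE) with the hairpin and -4.13 ± 0.19 with siRNA. Total counts ran from 15954616 to 25953213 per library. The 8 squamous markers (KRT5, KRT14, KRT17, TP63, DSG3, PKP1, PERP and SFN) summed to at least 13100 CPM in every library, where CPM is the count scaled to a common library size within a table. Their sum was 13100 and 13300 CPM in shCON and 22400 and 22600 CPM in shETS1, with 6 of 8 called higher and 2 lower. The 5 leukocyte markers stayed between 1.41 and 4.0 CPM in sum, with PTPRC at 0 in both siRNA groups. Other markers moved with the hairpin: the 6 fibroblast markers summed to 253 and 279 CPM in shCON against 2130 and 2230 CPM in shETS1, with all 5 that were tested called higher. The 4 endothelial markers summed to 1.96 and 2.03 against 23.8 and 24.0 CPM, with KDR alone tested and called and PECAM1 and CDH5 at 0 in both groups. After siRNA the squamous sum was 13100 and 17000 CPM in the control and 20400 and 23000 CPM with ETS1 siRNA, with 0 of 8 called. The fibroblast sum was 183 and 214 CPM against 284 and 333 CPM, with 1 of 6 called higher. The endothelial sum was at most 1.05 CPM in these libraries. The part of these shifts in the changes reported below was not tested.

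Within the shCON cells the mitosis genes spanned a wide range of levels per transcript length (TPM, the count per kilobase of exon as a share of the library). ANLN, an actin-binding scaffold of the cleavage furrow, was highest at 463 and 484 TPM, followed by CDC20 at 390 and 437 TPM and TOP2A at 349 and 366 TPM. At the other end stood the separase gene ESPL1 at 11.6 and 13.8 TPM and the centromere protector SGOL1 (shugoshin) at 9.67 and 10.6 TPM. In siRNA control cells CDC20 led at 712 and 740 TPM, and SGOL1 was again lowest at 8.67 and 11.8 TPM. Across the 54 genes the change after shRNA followed neither the shCON level (Spearman's rho 0.161) nor the exon length (rho 0.104) closely, given as a description over genes that share the same 4 libraries.

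The promoter windows of these genes, 250 bases before to 50 after the annotated start in RefSeq (GRCh38.p14), are shown because the CHR is an element known from many promoters of mitotic genes. Windows were matched for 46 of the 54 genes, all but AURKA, UBE2C, BUB3, TTK, BIRC5, CENPM, TPX2 and FOXM1. One window was used per gene, the first listed. The 30-base stretches below are those of the 10 genes with the largest falls after shRNA among the genes with a match to the CHR letters TTTGAA or TTCGAA on either strand, each around the match nearest to the start, and capitals mark the match.
PLK1: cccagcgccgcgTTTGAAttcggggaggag
ESPL1: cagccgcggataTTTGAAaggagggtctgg
INCENP: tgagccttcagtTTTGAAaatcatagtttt
SPC25: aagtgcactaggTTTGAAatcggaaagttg
CDCA8: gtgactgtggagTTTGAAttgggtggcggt
SGOL1: gaggcggaaaatTTCGAAtgtggcggcggt
CDC20: cgacggttggatTTTGAAggagccaatagg
KIF14: gcggggcgcccaTTCAAAttgcggccttct
BUB1B: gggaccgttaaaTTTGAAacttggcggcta
CENPA: cggagcgagcgaTTTGAAcgcgagcggcgc
In PLK1 the stretch lies at chr16:23678848-23678877 on the plus strand, with the match starting 29 bases before the annotated start, and in BUB1B at chr15:40161034-40161063 on the plus strand, with the match 23 bases before it. In SPC25 it lies at chr2:168890416-168890445 on the minus strand, and in KIF14 the letters TTCAAA are the element read on the other strand, at chr1:200620733-200620762.

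CHR letters were found in 34 of the 46 windows (73.9%), against 16.6% of all 27305 windows of the same length and 11.5% of the 10367 windows of genes tested after shRNA. Among the mitosis genes the matches sat close to the start: 43.5% of windows had one in the 50 bases before it and 21.7% in the 50 bases after it, against 2.74% and 2.45% of all windows. The CCAAT letters, bound by NF-Y, were also in 34 of 46 windows (73.9%, against 35.7% of all), and both elements together in 26 (56.5%, against 6.58%). The ETS core CCGGAAG was in 9 windows (19.6%), against 10.7% of all windows and 18.1% of those of genes tested after shRNA. Each motif was searched on both strands, and matches were counted for each motif even where they shared a base. The 34 genes with CHR letters had a median log2 fold change of -0.89 after shRNA and the 12 without had -0.86, close to each other beside the range of either group. These are matches of letters, not measured binding sites.

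**Figure D1:**
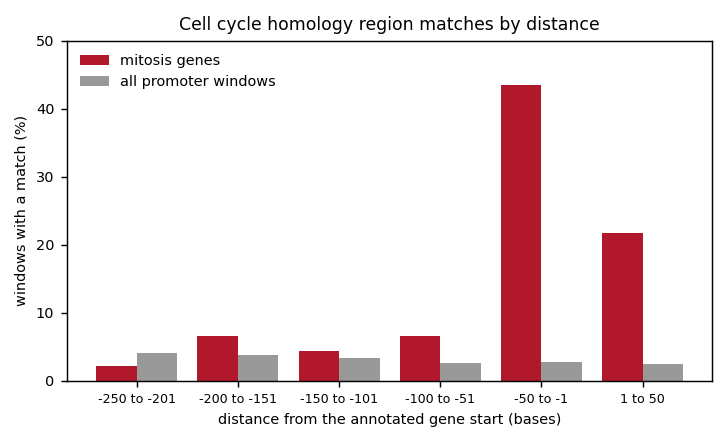
Share of promoter windows with CHR letters (TTTGAA or TTCGAA, either strand), in percent on the y axis, by distance of the match from the annotated start in bases on the x axis, for 46 windows of the mitosis genes (red bars) and all 27305 windows (grey bars). The mitosis genes reach 43.5% in the bin just before the start, whereas no bin of all windows is above 4.06%.

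Long-term loss of ETS1 was accompanied by a fall of the mitosis genes as a whole. A total of 53 of the 54 genes were lower in shETS1 than in shCON at a Benjamini-Hochberg adjusted p under 0.1 in edgeR's two-sided quasi-likelihood test, where 30.9% of the 16481 genes tested were called lower. None of the 54 was called higher, whether by edgeR, by DESeq2 or at an unadjusted p under 0.05, while edgeR called 29.7% of all genes higher. The median log2 fold change of the 54 was -0.88, a median of 54.5% of the control level, beside a median of 0.0007 over all genes tested. Of the 54, 18 were called and at least 2-fold lower (7.78% of all genes), 27 fell between 1.5- and 2-fold and 9 changed by less, BUB3 among them. Both shETS1 libraries lay below both shCON libraries for all 54 genes, against 38.6% of all genes tested. In sum, the 54 genes took 0.873% and 0.887% of all counts in shCON and 0.438% and 0.470% in shETS1.

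In such bulk libraries fewer dividing cells and less mRNA per dividing cell cannot be told apart. A group of 5 structural RNAs that lack a poly(A) tail made up 12.3% and 9.64% of the shETS1 counts, against 5.61% and 6.63% with shCON. With these and the mitochondrial genes left out before scaling, the median of the 54 was -0.88 and all 54 were called lower.

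**Figure D2:**
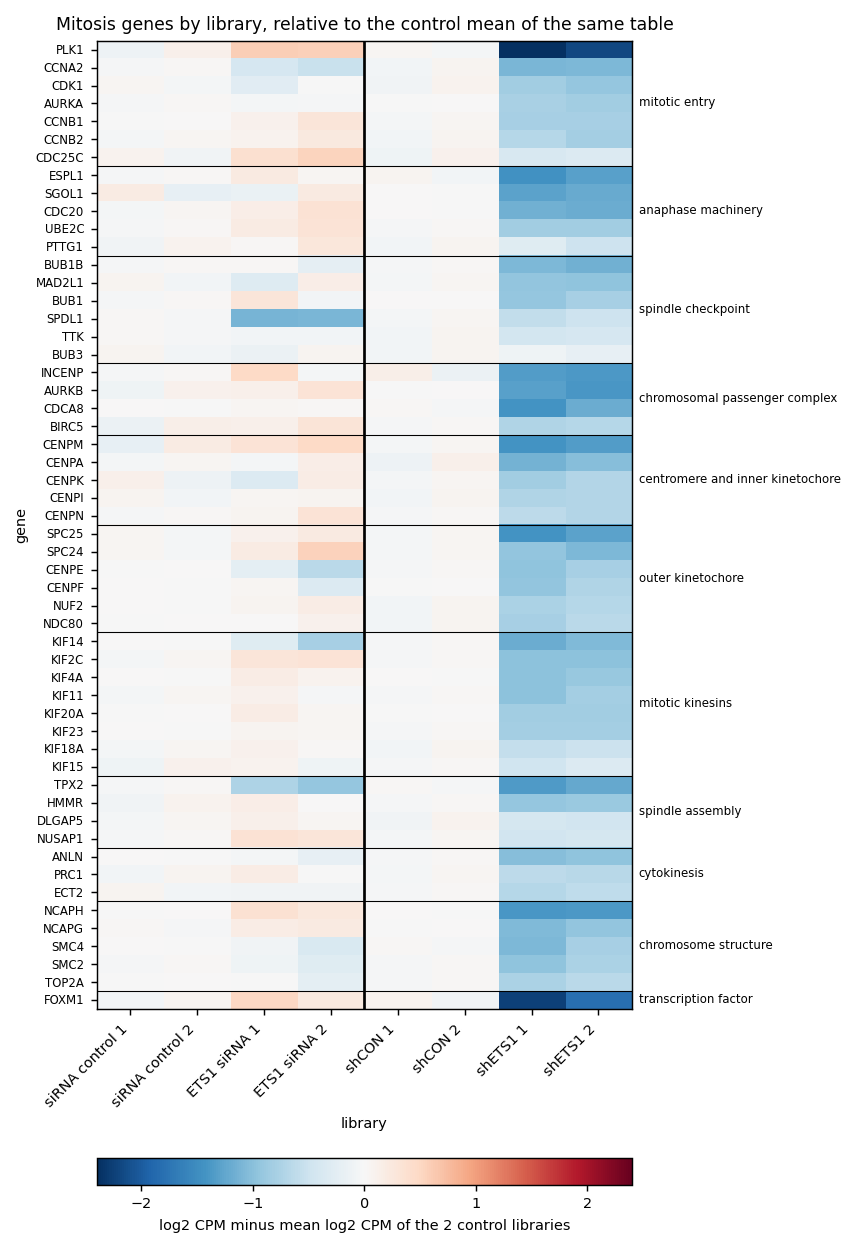
Each mitosis gene (rows, grouped by role) in each of the 8 libraries (columns), coloured by log2 CPM minus the mean log2 CPM of the 2 control libraries of the same table, from blue (lower) to red (higher). The 2 shETS1 columns are blue for all 54 genes, while the 2 ETS1 siRNA columns hold both colours, with SPDL1 and TPX2 the deepest blue.

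Among the regulators of mitotic entry the deepest fall was that of PLK1, the Polo-like kinase that acts at centrosomes, kinetochores and the midbody. PLK1 stood at 71.0 and 65.9 CPM in shCON and at 12.2 and 15 CPM in shETS1. Both shETS1 libraries were thus far under both controls, at 19.9% of the control level (log2 fold change -2.33 ± 0.10, adjusted p = 4.8e-12). CCNA2, the A-type cyclin of S phase and early mitosis, fell from 169 and 186 to 83.3 and 84.2 CPM (-1.09 ± 0.08). CDK1 went from 245 and 275 to 145 and 136 CPM (-0.89 ± 0.08) and its partner CCNB1 from 225 and 239 CPM to 134 CPM in each shETS1 library (-0.79 ± 0.07). The kinase and both B-type cyclins, with CCNB2 at -0.75, and the centrosomal kinase AURKA at -0.81 lay close to each other, and PLK1 fell by 1.54 more on the log2 scale than CCNB1 (combined SE 0.12). CDC25C, the phosphatase that activates CDK1, changed least in this group, from 17.3 and 19.8 to 14.2 and 14.8 CPM (-0.36 ± 0.11, adjusted p = 0.01), a call that was lost without shCON replicate 2, where the log2 fold change was -0.25.

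FOXM1, the transcription factor that drives many of these genes late in the cycle, had the second largest fall. It was measured at 60.8 and 53.5 CPM in shCON and at 12.1 and 16.3 CPM in shETS1, or 25% of the control level (-2.00 ± 0.12, adjusted p = 2.2e-10). PLK1 and FOXM1 stood apart from the other 52 genes, the next being NCAPH at -1.39. Both overlap an exon of a gene on the opposite strand (ERN2 and ITFG2), and whether counting used strand is not given in the sources used here.

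**Figure D3:**
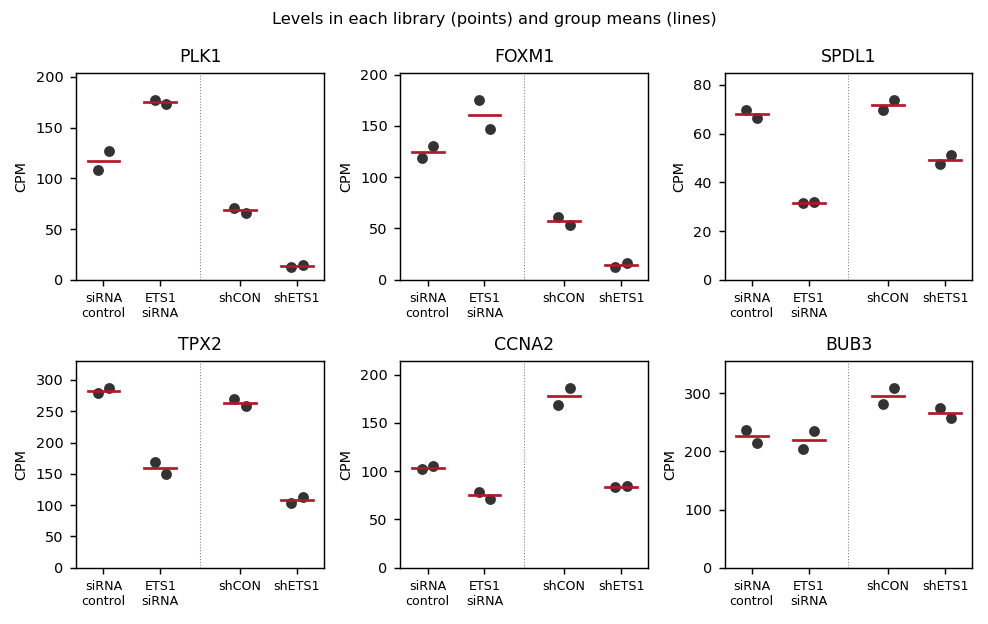
CPM (linear y axis from 0) in each library for PLK1, FOXM1, SPDL1, TPX2, CCNA2 and BUB3. Points are single libraries, 2 per group, and red lines are group means. The axes differ between genes, and levels in the siRNA and shRNA tables were scaled separately. Against their own controls, PLK1 and FOXM1 are lower in shETS1, SPDL1 and TPX2 are lower in both knockdowns, and BUB3 differs little.

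The chromosomal passenger complex corrects faulty attachments of chromosomes to the spindle, and its 4 genes fell by a median of 1.33 on the log2 scale, more than any other role with several genes. Its kinase AURKB went from 62.5 and 63.8 to 25.5 and 23.9 CPM (-1.36 ± 0.08). The scaffold INCENP went from 56.7 and 46.8 to 20.3 and 19.7 CPM (-1.37 ± 0.10), and CDCA8 (borealin) from 65.4 and 63.4 to 23.8 and 28.1 CPM (-1.31 ± 0.09). These 3 genes were near 40% of control, with no overlap between groups. Both shETS1 libraries lay below both shCON libraries for 38.6% of all genes tested. BIRC5 (survivin) fell less, from 87.3 and 89.9 to 53.9 and 54.9 CPM (-0.70 ± 0.07). The ratio of AURKB to BIRC5 reads, which no scaling of libraries can move, was 0.473 and 0.435 in shETS1 against 0.716 and 0.710 in shCON.

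The genes of the NDC80 complex, the microtubule hook of the outer kinetochore, fell unequally. NDC80 and NUF2, the pair that binds the microtubule, changed alike, NDC80 from 81.4 and 88.8 to 48.9 and 54.4 CPM (-0.72 ± 0.08) and NUF2 from 64.0 and 70.5 to 39.6 and 41.8 CPM (-0.72 ± 0.08). SPC24 and SPC25, the pair that faces the centromere, fell further. The difference between SPC25 and NDC80 was -0.63 on the log2 scale (combined SE 0.15). SPC25 went from 17.8 and 19.0 to 6.79 and 7.56 CPM (-1.35 ± 0.12) and SPC24 from 148 and 156 to 79.1 and 71.8 CPM (-1.01 ± 0.08). The ratio of SPC25 to NDC80 reads was 0.218 and 0.214 in shCON and 0.139 in each shETS1 library, and that of NDC80 to NUF2 reads was 1.27 and 1.26 against 1.24 and 1.30. The first ratio was therefore lower in both knockdown libraries and the second overlapped between groups. The genes of the large kinetochore proteins CENPE, a motor, and CENPF fell by 0.89 and 0.83 on the log2 scale.

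At the inner kinetochore all 5 genes fell. CENPM, a member of the constitutive centromere network, had the largest change, from 14.9 and 15.9 to 5.70 and 6.10 CPM (-1.38 ± 0.13). CENPA, the histone H3 variant that marks centromeres, went from 29.9 and 35.0 to 14.8 and 15.9 CPM (-1.08 ± 0.10). CENPK, CENPI and CENPN, of the same network, had values of -0.76, -0.71 and -0.66. The difference between CENPM and CENPK was -0.62 on the log2 scale (combined SE 0.15).

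In the spindle checkpoint 5 of the 6 genes were called lower (83.3%, against 30.9% of all genes tested). The changes ran from -1.12 to -0.15 on the log2 scale, the latter the smallest of all 54. BUB1B (BUBR1), the inhibitor of CDC20, went from 100 and 104 to 48.1 and 46.0 CPM (-1.12 ± 0.08). MAD2L1, its partner in that inhibitory complex, fell by 0.95 and the kinase BUB1 by 0.86 on the log2 scale. SPDL1, which recruits dynein to kinetochores, went from 69.7 and 73.7 to 47.3 and 51.1 CPM (-0.54 ± 0.08), and the kinase TTK (MPS1) fell by 0.43. BUB3, the partner of BUB1 and BUB1B, was measured at 281 and 309 CPM in shCON and at 274 and 257 CPM in shETS1 (-0.15 ± 0.08), where the adjusted p of 0.1 lay just above the threshold. Both shETS1 libraries still lay below both controls for BUB3, as they did for 38.6% of all genes tested. BUB3 was called lower without shCON replicate 1 (-0.23) or shETS1 replicate 1 (-0.21). It was not called without shCON replicate 2 (-0.08) or shETS1 replicate 2 (-0.11). The ratio of BUB1B to BUB3 reads was 0.356 and 0.336 in shCON and 0.175 and 0.179 in shETS1.

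Among the genes of anaphase onset, ESPL1, the protease that cuts cohesin, fell from 34.3 and 31.5 to 12 and 13.3 CPM (-1.37 ± 0.10). SGOL1, which protects cohesin at the centromere, went from 11.1 and 11.0 to 4.53 and 4.75 CPM (-1.26 ± 0.14), and CDC20, the activator of the anaphase-promoting complex, from 246 and 240 to 109 and 106 CPM (-1.17 ± 0.07). These 3 were more than 2-fold lower. UBE2C, the ubiquitin-conjugating enzyme of the same complex, fell by 0.84 on the log2 scale. PTTG1 (securin), the inhibitor of separase, went from 111 and 121 to 94.6 and 81.9 CPM (-0.40 ± 0.08), so that the protease gene fell further than that of its inhibitor. The near copies PTTG2 and PTTG3P had no read in any library.

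All 8 mitotic kinesins fell, by between 0.40 and 1.12 on the log2 scale. KIF14, a kinesin of cytokinesis, changed most, from 171 and 177 to 76.6 and 83.3 CPM (-1.12 ± 0.07). The microtubule-depolymerising KIF2C (MCAK) was at -0.97, the chromokinesin KIF4A at -0.95 and the spindle motor KIF11 (Eg5) at -0.90. KIF20A and KIF23, both of the central spindle, were at -0.83 and -0.82. KIF18A, which dampens chromosome oscillation, was at -0.54, and KIF15, a motor with a role that overlaps that of KIF11, changed least, from 28 and 28.8 to 20.3 and 22.7 CPM (-0.40 ± 0.10). KIF4B, the near copy of KIF4A, had at most 8 reads in any library.

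Of the spindle assembly factors TPX2, the activator of Aurora A, fell most, from 270 and 258 to 103 and 113 CPM (-1.29 ± 0.08), against -0.81 for AURKA itself. HMMR, a spindle-associated hyaluronan receptor, was at -0.91. The microtubule-binding NUSAP1 and DLGAP5 (HURP) fell less, each by 0.44 on the log2 scale. In cytokinesis ANLN fell to 50.2% of the control level, from 811 and 848 to 410 and 422 CPM, while the midzone protein PRC1 and the RhoA activator ECT2 were at -0.65 each. For ANLN the 2 shETS1 libraries lay close together and far below both controls.

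Among the genes of chromosome structure NCAPH, which like NCAPG encodes a condensin I subunit, fell most. NCAPH went from 77.3 and 75.4 to 28.9 and 29.2 CPM (-1.39 ± 0.08) and NCAPG from 64.5 and 65.8 to 31.1 and 33.7 CPM (-1.01 ± 0.08). SMC2 and SMC4, the ATPases common to both condensins, fell by 0.86 and 0.94 and the topoisomerase TOP2A by 0.71 on the log2 scale. The ratio of NCAPH to SMC2 reads was 0.317 and 0.298 in shCON and 0.227 and 0.200 in shETS1, lower in both knockdown libraries. NCAPG and SMC4 changed alike, with a difference of -0.07 on the log2 scale (combined SE 0.12). Their read ratio overlapped between groups, at 0.216 and 0.227 in shCON and 0.225 and 0.200 in shETS1.

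Short-term loss of ETS1 by siRNA gave another picture: most of the mitosis genes differed little between groups, and 3 of the 54 were called. SPDL1 and TPX2 were lower and PLK1 was higher at an adjusted p under 0.1, where 2.27% of the 14742 genes tested were called lower and 1.13% higher. The share of the 54 that was called, 3.70% lower and 1.85% higher, was thus near that of all genes. The median log2 fold change was 0.07, beside 0.0018 over all genes tested, and 42 of the 54 had a value within 0.3 of 0 on the log2 scale. The 54 genes took between 0.625% and 0.651% of counts in all 4 libraries.

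SPDL1 was the member with the largest change. It stood at 69.8 and 66.3 CPM in siRNA control and at 31.5 and 31.7 CPM in ETS1 siRNA (-1.11 ± 0.11, adjusted p = 0.0099). The 2 groups were well apart, and the call held when any library was left out. TPX2 went from 279 and 287 CPM to 169 and 149 CPM (-0.83 ± 0.13, adjusted p = 0.03). Its groups did not overlap either, where 26.2% of all genes had both ETS1 siRNA libraries below both controls. The call of TPX2 was lost without siRNA control replicate 1 (-0.85). PLK1 rose from 108 and 127 to 177 and 173 CPM (0.58 ± 0.14, adjusted p = 0.093), the direction opposite to that with the hairpin. This call was lost without siRNA control replicate 1 (0.46, adjusted p = 0.71), without siRNA control replicate 2 (0.70, adjusted p = 0.12) and without ETS1 siRNA replicate 2 (0.59, adjusted p = 0.11).

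The members that came next did not pass the threshold. On the low side these were KIF14, from 78.3 and 77.9 to 64.2 and 44.9 CPM (-0.52 ± 0.17, adjusted p = 0.17), CCNA2, from 102 and 105 to 78.4 and 71.6 CPM (-0.46 ± 0.13, adjusted p = 0.13), and CENPE (-0.42 ± 0.16, adjusted p = 0.22). DESeq2 called KIF14 and CCNA2 as well. On the high side CDC25C stood at 14.1 and 12.5 against 17.4 and 19.3 CPM (0.46 ± 0.16, adjusted p = 0.18), CENPM at 0.40, SPC24 at 0.39 and FOXM1 at 119 and 130 against 175 and 147 CPM (0.37 ± 0.14, adjusted p = 0.23). At an unadjusted p under 0.05, 5 members were lower and 7 higher, where 10.4% of all genes were lower and 8.06% higher. Both ETS1 siRNA libraries were below both controls for 10 members (26.2% of all genes) and above them for 24 (25.7% of all genes), and 20 overlapped.

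Among the roles with several genes, the chromosomal passenger genes had the highest median after siRNA (0.22) and the chromosome structure genes the lowest (-0.12), both without a call. The 5 anaphase genes were all above 0, from 0.02 for SGOL1 to 0.26 for UBE2C and CDC20. None of the 5 was called, and 7335 of all 14742 genes tested were below 0. Within the NDC80 complex the ratio of SPC25 to NDC80 reads was 0.467 and 0.434 in siRNA control and 0.477 and 0.486 in ETS1 siRNA. The ETS1 siRNA libraries were thus slightly above both controls. The ratio of AURKB to BIRC5 reads overlapped between groups, at 1.35 and 1.28 against 1.32 and 1.34.

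**Figure D4:**
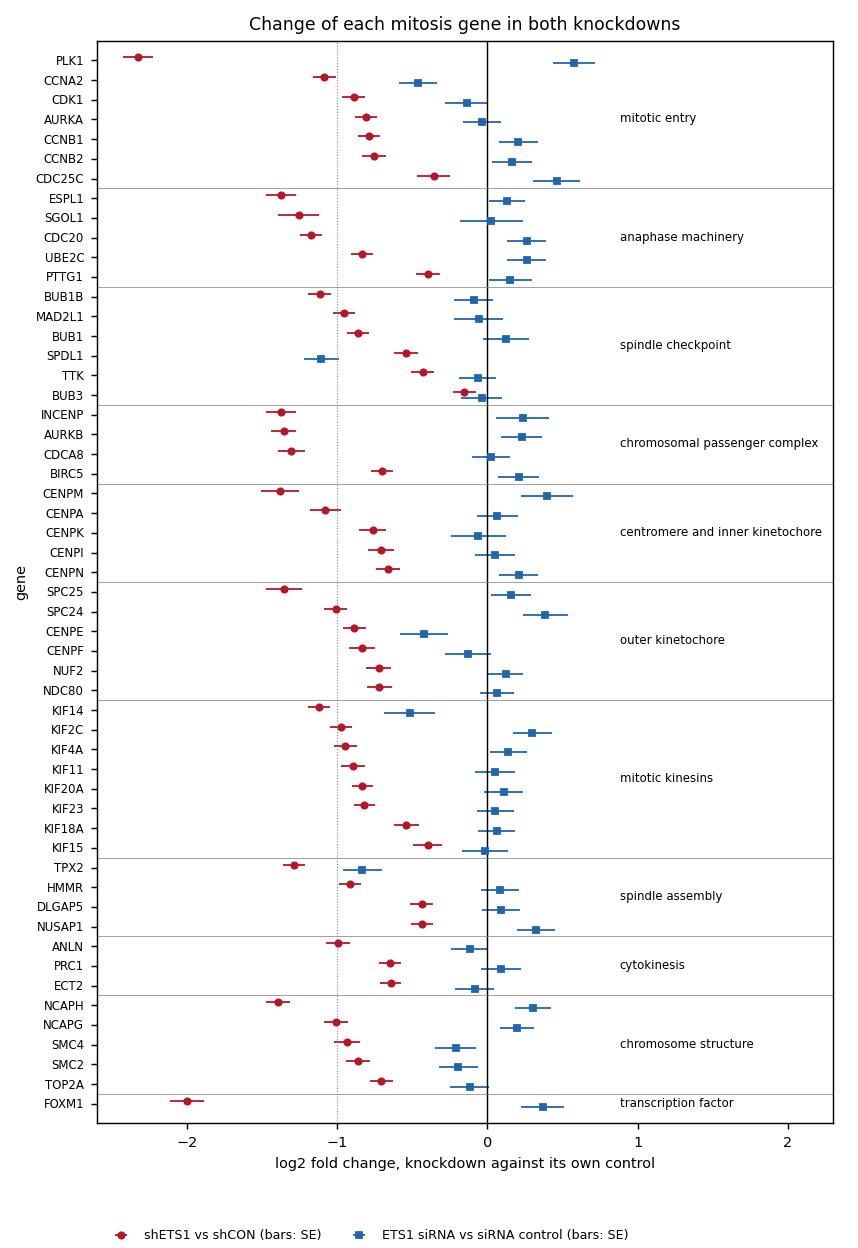
Log2 fold change (x axis) of each mitosis gene against its own control, with bars of 1 SE, for the hairpin (red circles) and siRNA (blue squares). All 54 red circles lie below 0, from -2.33 for PLK1 to -0.15 for BUB3, whereas the blue squares scatter around 0 with SPDL1 at -1.11, TPX2 at -0.83 and PLK1 at 0.58. The dotted line marks -1.

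To ask whether the knockdowns differed, the effect of siRNA was subtracted from that of the hairpin in 1 fit of all 8 libraries. This difference was below 0 for 51 of the 54 genes at an adjusted p under 0.1, where 19.7% of the 17190 genes tested were, and higher for 1 (15.1% of all genes). The median was -0.89, beside -0.02 over all genes. It was lowest for PLK1 (-2.92 ± 0.18), FOXM1 (-2.39 ± 0.21), CENPM (-1.80 ± 0.21), NCAPH (-1.72 ± 0.13) and INCENP (-1.63 ± 0.22). SPDL1 was the exception in the other direction (0.54 ± 0.14, adjusted p = 0.013), since it fell more with siRNA than with the hairpin. BUB3 (-0.14, adjusted p = 0.55) and KIF15 (-0.40, adjusted p = 0.11) were not called, and TTK at -0.39 and TPX2 at -0.48 were the called genes with the smallest differences. The kind of knockdown, its duration and the preparation, mapping and counting of the libraries cannot be told apart here. Each knockdown fills its own table. Structural RNAs took at most 0.00339% of counts in the siRNA libraries. Mitochondrial genes took 0% of counts in each siRNA library, against 0.508% to 0.820% in the shRNA libraries. The cause of this difference between the tables was not tested. Across the 54 genes the changes after shRNA and after siRNA had a Pearson r of -0.211 and a Spearman rho of -0.173, a description over genes that share libraries within each table.

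Other genes of mitosis, 93 symbols outside the 54, moved in the same direction after shRNA. Where 30.9% of all genes tested were called lower and 29.7% higher, 74 of the 92 tested here fell (80.4%) and 4 rose (4.35%). The median log2 fold change of the 92 was -0.70. The centrosomal spindle protein TACC3 at -2.23, the cyclin CCNF at -1.77, the spindle protein CKAP2L at -1.67, the condensin subunit NCAPD2 at -1.45 and the cohesin regulator CDCA5 (sororin) at -1.26 were among those with the lowest adjusted p. The 4 that rose were MAD2L1BP (0.53), which helps to silence the checkpoint, the kinetochore genes NSL1 (0.38) and SKA2 (0.22), and ANAPC10 (0.35), a subunit of the anaphase-promoting complex. SKA2 was not called without shCON replicate 1 (0.19). After siRNA 1 of the 92 fell (1.09%, against 2.27% of all genes), the kinase MASTL (-0.59), which protects CDK1 phosphorylations. Another 1 rose (1.09%, against 1.13% of all genes), the CDK1-inhibiting kinase PKMYT1 (0.70), and the median was 0.0088. Neither call held without siRNA control replicate 1, at -0.70 for MASTL and 0.53 for PKMYT1, or without ETS1 siRNA replicate 2, at -0.57 and 0.67, and that of MASTL was also lost without siRNA control replicate 2, at -0.48. CHR letters were in 37 of the 74 matched windows of these genes (50%).

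The 45 genes of DNA replication, which peak earlier in the cycle, fell about as far as the mitosis genes after shRNA. Their median was -0.92, and 44 of 45 were called lower (97.8%, against 30.9% of all genes). The ribonucleotide reductase subunit RRM2 at -1.79, TIMELESS at -1.75 and CLSPN at -1.34 had the lowest adjusted p. After siRNA the median was 0.16 and 5 rose (11.1%, against 1.13% of all genes). These were the licensing factor CDT1 (0.65), the helicase subunit GINS2 (0.68), thymidine kinase TK1 (0.58), the ligase LIG1 (0.50) and the flap nuclease FEN1 (0.60). None of these 5 calls held without siRNA control replicate 1, where their values were 0.58, 0.54, 0.49, 0.46 and 0.50. GINS2, TK1, LIG1 and FEN1 also lost theirs without ETS1 siRNA replicate 2, at 0.63, 0.52, 0.49 and 0.51, and TK1, LIG1 and FEN1 without siRNA control replicate 2, at 0.67, 0.53 and 0.71. No replication gene was called lower by edgeR or DESeq2 after siRNA, and 0 were lower at an unadjusted p under 0.05. CHR letters were in 2 of their 38 windows (5.26%).

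The regulators upstream of both groups were mixed. Of 21 transcription regulators of the cell cycle 14 fell (66.7%) and 2 rose (9.52%) after shRNA, against 30.9% and 29.7% of all genes. Their median was -0.36. The repressor E2F7 at -2.28 and MYBL2 (B-MYB) at -1.82 fell most, the activator E2F1 was at -1.12, TFDP1 at -0.90 and RBL1 (p107) at -0.73, while RBL2 (p130), the pocket protein of resting cells, was at 0.48 and TFDP2 at 0.68. After siRNA 1 of the 21 was called higher (4.76%, against 1.13% of all genes) and 0 lower. The gene was MYBL2 (0.57, adjusted p = 0.097), a call lost without siRNA control replicate 1 (0.45), siRNA control replicate 2 (0.70) or ETS1 siRNA replicate 2 (0.60). Of the 15 G1 cyclins, their kinases and CDK inhibitors 4 fell (26.7%) and 5 rose (33.3%) after shRNA, with a median of -0.08. These shares were near those of all genes, 30.9% and 29.7%. CCND2 (-3.11), CDK2 (-0.77), CDK4 (-0.76) and CCND3 (-0.51) fell, and the inhibitors CDKN1C (1.95), CDKN2B (1.85), CDKN1B (0.43) and CDKN1A (0.33) rose, as did CCNE1 (0.43), whose call was lost without shCON replicate 1 (0.29). After siRNA CDK6 (1.03) and CDK2 (0.77) rose (13.3% of the 15, against 1.13% of all genes). CCND2 (-0.55) fell (6.67%, against 2.27% of all genes). The call of CDK2 was lost without siRNA control replicate 1 (0.72), as was that of CCND2 (-0.64). CCND2 was also not called without siRNA control replicate 2 (-0.46) or ETS1 siRNA replicate 2 (-0.44).

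**Figure D5:**
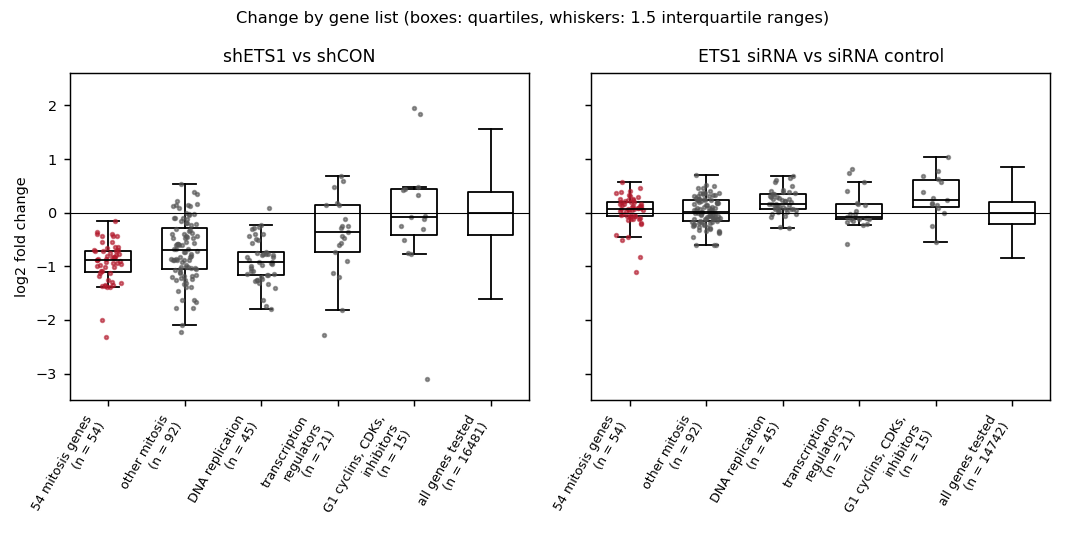
Log2 fold change (y axis) after shRNA (left) and siRNA (right) for the 54 mitosis genes (red points), the 4 other cell cycle lists (grey points) and all genes tested. Boxes show quartiles and medians, whiskers 1.5 interquartile ranges, and single genes are not drawn for the group of all genes. After shRNA all 54 mitosis genes lie below 0, with a median of -0.88. So do 44 of the 45 DNA replication genes, all but RPA2 (0.09), with a median of -0.92. After siRNA the medians of the 5 lists lie between -0.07 and 0.23.

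The heptamer ACCTCAA, which earlier results of these data had singled out in genes lower after siRNA, was looked up in the 3′ untranslated regions of the mitosis genes because 2 of them were lower there. TPX2 holds 1 copy, starting at base 52 of 728, shown with 10 bases on either side and the heptamer in capitals.
TPX2: cctgctcttaACCTCAAacctaggacc
KIF14 also holds 1 copy and SPDL1 none. In all, 5 of the 54 genes carry it (9.26%), against 13.2% of genes tested after siRNA that had a 3′ untranslated region in the annotation. The 5 carriers had a median log2 fold change of -0.02 after siRNA and the other 49 had 0.09. Over all genes 140 of 1703 carriers and 182 of the 11181 others were called lower. Since the heptamer was singled out in these same data, that contrast is no separate support for it. Among the 54 genes 1 of the 5 carriers and 1 of the other 49 were called lower.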

How the data were processed

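Total RNA of SCC25 cells was made into TruSeq RNA libraries. Per the labels and methods, the authors mapped reads to GRCh37 with TopHat2 2.1.1 and Bowtie2 2.2.6 and counted them per gene with featureCounts 1.5.0, versions as in the submitters' processing notes. The deposited tables, 1 per knockdown, hold unnormalized counts of reads for each gene symbol. Mitochondrial genes have no reads in the siRNA libraries but do in the shRNA libraries, and the sources used here give no reason for this. The strand setting and the handling of reads with several matches are not given in the sources used here. Exons of 5 of the 54 genes overlap another gene on the same strand and of 18 on the opposite strand in GENCODE v44lift37, and 34 overlap none, so the former can share reads.

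Counts were tested with edgeR 4.0.16 in R 4.3.3 (quasi-likelihood F-test, two-sided, TMM scaling, filterByExpr, no covariate besides group), each knockdown on its own 4 libraries, across the whole table. The difference between knockdowns was tested over all 8 libraries. A Benjamini-Hochberg adjusted p under 0.1 made a call, as in the study, whose tool DESeq2 (here 1.42.0) served as an alternative. Changes are log2 fold changes, with SEs from the change and its F statistic. CPM uses TMM-scaled totals within a table, so CPM values are not comparable between tables. TPM uses union exon lengths. Every per-sample column was used. Differences of 2 genes' fold changes have a combined SE that treats them as independent, and no test was made of them.

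Replicates of 1 group differed by more than sampling noise (chi-square per degree of freedom 6.23 to 23.2), so none is a repeat deposit. Same-numbered libraries did not deviate together (correlation of deviations -0.130 for shRNA and -0.566 for siRNA). Scripts were tested on simulated counts. The 54 genes, their 11 roles and the other lists were chosen with earlier results of these data known. Named were ETS1, all members after shRNA, members called or with the 5 largest rises and falls after siRNA, the 5 lowest and highest differences between knockdowns, up to 5 called falls and rises per list by adjusted p, and 10 promoter windows by size of change. Other members' values after siRNA, the non-members that share exons and the near copies were named after values were seen. Alternatives were the scaling, the filter, DESeq2, a replicate block, all 8 libraries in 1 fit, a stricter threshold and leaving out each library.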

Additional observations from a re-analysis of the deposited data

Results flagged for a closer look

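The effects of the hairpin and of siRNA were compared by the difference test over all 8 libraries, and 51 of the 54 mitosis genes had a lower value with the hairpin and 1 a higher one, with a median difference of -0.89 on the log2 scale. ETS1 itself fell more with siRNA, with a difference of 1.23. Single genes with a difference past the threshold were PLK1 (-2.92), FOXM1 (-2.39), CENPM (-1.80), NCAPH (-1.72), INCENP (-1.63), TPX2 (-0.48) and TTK (-0.39) on the low side and SPDL1 (0.54) on the high side. The calls of TTK and TPX2 depend on single libraries, and so do those of CENPE, KIF14, PTTG1 and CENPK among the other members. TTK lost its call without shCON replicate 2 (-0.33), shETS1 replicate 1 (-0.34) or shETS1 replicate 2 (-0.41), and TPX2 without shCON replicate 1 (-0.44) or shETS1 replicate 1 (-0.39). SPDL1 kept its call when any of the 8 libraries was left out. The kind of knockdown, its duration and the preparation, mapping and counting of the libraries cannot be told apart.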

How the results depend on the processing

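No called change and no median of the 54 genes changed sign under the alternatives run, whereas values near 0 after siRNA could, and between 16 and 20 members were below 0 there. After shRNA the number of genes called lower stayed between 52 and 54 of 54, the lowest without shCON replicate 2. The median moved to -0.9998 with library size only, a scaling that also moved the median of all genes to -0.12, and ran from -0.94 to -0.83 when single libraries were left out. After siRNA the calls were fewer and less stable. The count of members called lower, 2 as reported, was 4 without a filter, 4 with DESeq2, 5 with all 8 libraries in 1 fit, 1 with the replicate block and between 1 and 5 when single libraries were left out, the lowest without siRNA control replicate 1 and the highest without ETS1 siRNA replicate 1. The count called higher, 1 as reported, was 6 with all 8 libraries, 0 with the block, 0 at an adjusted p under 0.05 and between 0 and 2 with single libraries left out. The median after siRNA ran from 0.053 to 0.114. The median difference between knockdowns was -0.98 with library size only, -0.86 with at least 10 counts in every library, -0.85 for protein-coding genes with at least 1 TPM and between -0.93 and -0.86 with single libraries left out. The replicate block left 53 genes lower after shRNA and 48 with a lower difference, and took the siRNA calls over all genes from 502 to 97. The numbers do not pair the samples by any label. A crossed pairing, chosen after seeing the data, called 5 members lower and 7 higher after siRNA, with 3238 calls over all genes, and 10923 over all genes after shRNA. The cause of these differences was not tested. Precision is limited by 2 libraries per group.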
